A study of Mus musculus with 4 samples.

Results

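The genes described here are 10 genes of macrophages and of the complement protein C1q: C1qa, C1qb, C1qc, Csf1r, Tyrobp, Cd14, Cd163, Mrc1, Cd68 and Cd74. They were taken by gene symbol from the annotation of the array, which names 18193 genes through probe sets of 1 gene each. This gave 14 probe sets of the 45101 on the array, and all 14 were bright enough to be tested. RNA came from the left hemi-diaphragm of the mouse, the breathing muscle, with 2 arrays of its synaptic region and 2 of its non-synaptic region. The labels name no strain, genotype, age or treatment, and do not say whether the 2 arrays of a region stand for different animals. The p-values below therefore rest on array-to-array spread alone, which may be technical. The sample titles end in a number, 1 or 2, that occurs once in each region and is called the replicate number here.

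Macrophages live in the connective tissue between muscle fibres, around vessels and along nerves, where they clear dead cells and debris and respond to injury and infection. They depend on the growth factor receptor Csf1r for survival. C1q is the recognition part of the first complement component. It is built from A, B and C chains, each with a collagen-like stalk and a globular head, and in most tissues its main source is the macrophage and its relatives. The genes of the C1q chains, C1qa, C1qb and C1qc, lie next to each other on chromosome 4 in the RefSeq annotation. In RNA from whole pieces of muscle, fewer cells of a type and less RNA per cell cannot be told apart.

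The sequences shown are the 250 bases before the annotated start of Cd163 and C1qc, the only member genes whose regions did not overlap on the arrays, of C1qb, the neighbour of C1qc, and of Mrc1, which differed most between the replicate numbers. They come from RefSeq, build GRCm38.p6, and each is written 5′ to 3′ on the strand of its gene. Capitals mark GAGGAA, the core bound by PU.1, the transcription factor of the myeloid lineage, on either strand. RefSeq promoter sequences searched here covered 5 of the 10 genes.
Cd163, chr6:124304401-124304650, plus strand: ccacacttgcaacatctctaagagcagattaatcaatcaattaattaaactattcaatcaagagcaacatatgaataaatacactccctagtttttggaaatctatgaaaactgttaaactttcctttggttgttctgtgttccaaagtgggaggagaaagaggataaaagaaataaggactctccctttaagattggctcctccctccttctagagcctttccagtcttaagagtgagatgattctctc
C1qc, chr4:136892915-136893164, minus strand: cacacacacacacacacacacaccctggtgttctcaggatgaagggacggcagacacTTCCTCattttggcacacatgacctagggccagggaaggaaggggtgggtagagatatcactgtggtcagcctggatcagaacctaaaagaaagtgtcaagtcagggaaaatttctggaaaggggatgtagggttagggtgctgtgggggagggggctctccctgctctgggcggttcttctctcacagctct
C1qb, chr4:136886201-136886450, minus strand: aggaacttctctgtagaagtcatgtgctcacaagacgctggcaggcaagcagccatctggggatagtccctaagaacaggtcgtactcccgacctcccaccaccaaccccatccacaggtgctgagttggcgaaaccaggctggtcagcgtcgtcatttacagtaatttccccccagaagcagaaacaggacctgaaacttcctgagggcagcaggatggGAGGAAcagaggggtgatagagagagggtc
Mrc1, chr2:14229164-14229413, plus strand: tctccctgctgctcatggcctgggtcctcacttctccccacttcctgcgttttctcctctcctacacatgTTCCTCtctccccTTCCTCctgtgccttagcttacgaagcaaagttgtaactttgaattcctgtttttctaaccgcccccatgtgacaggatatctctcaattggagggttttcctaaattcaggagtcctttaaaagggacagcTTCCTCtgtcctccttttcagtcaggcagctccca

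In these windows the letters GAGGAA, or TTCCTC on the other strand, occurred 3 times before Mrc1, at 180, 167 and 35 bases from the start. They occurred once before C1qc, at 193 bases, once before C1qb, at 30 bases, once before Cd68, at 225 bases, and not in the window of Cd163. Of 32851 RefSeq promoter windows of the same length, 23.3% held the core at least once and 3.54% at least 2 times. The motif TGANTCA of the factor AP-1 was searched on both strands too, and none of its matches in these windows overlapped a match of the PU.1 core. It was found in Cd68 alone of the 5 genes, as TGAGTCA at 149 and 24 bases from the start, against 6.75% of all windows with at least 1 match and 0.338% with at least 2. A match describes letters in a window and does not show binding.

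No macrophage or C1q gene passed the test between the regions. Cd163, a scavenger receptor, was at 0.693 times its non-synaptic level in the synaptic region, and C1qc at 0.766 times. These were the 2 of 14 probe sets with both synaptic arrays below both non-synaptic arrays, a share not far from the 9.98% of all tested probe sets that lay so. None of the 14 had both synaptic arrays above both others, against 9.89% of all. The other member genes, among them the lineage receptor Csf1r, overlapped between the regions. For Mrc1 and Tyrobp, among others, arrays of the same region with different replicate numbers lay further apart than the regions did. The same held in the median over all tested probe sets. There the absolute log2 difference was 0.35 between the synaptic arrays and 0.30 between the non-synaptic arrays. Between the regions it was 0.20 within replicate number 1 and 0.16 within number 2.

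**Figure D1:**
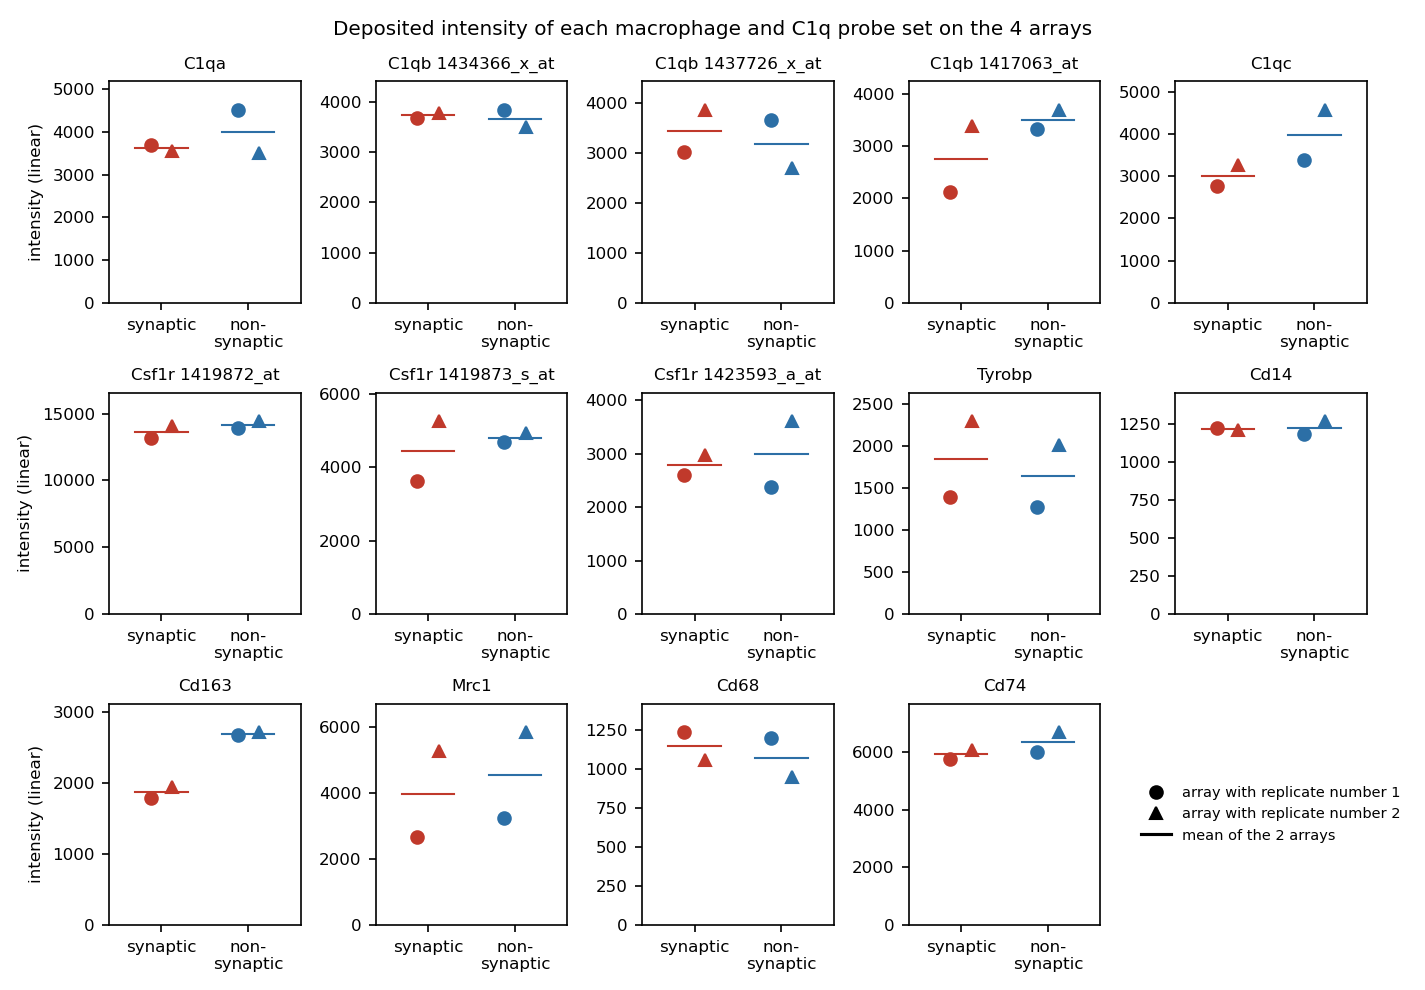
Intensity on a linear scale (vertical axis from 0) of the 14 probe sets on the 2 synaptic arrays (red) and the 2 non-synaptic arrays (blue), with circles for replicate number 1, triangles for number 2 and a line at the mean of the 2 arrays. The regions are apart for Cd163 and C1qc, and in the panels of Mrc1 and Tyrobp the triangles lie above the circles in both regions.

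Among the C1q chains, C1qc had intensities of 2773 and 3257 on the synaptic arrays and 3380 and 4557 on the non-synaptic arrays. The regions did not overlap, though the gap between the nearest arrays was small. The difference, synaptic minus non-synaptic, was -0.39 ± 0.25 on the log2 scale (moderated SE, n = 2 arrays per region), with a limma adjusted p of 1.0 over all 26480 probe sets tested. Within the arrays of replicate number 1 it was -0.29 and within those of number 2 -0.48. Leaving out each array in turn moved it between -0.60, without non-synaptic array 1, and -0.17, without non-synaptic array 2. C1qa, the A chain, read 3700 and 3556 on the synaptic arrays against 4501 and 3499 on the non-synaptic ones. The lowest of the 4 values was thus a non-synaptic one, and the difference was -0.13 ± 0.22.

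C1qb, the B chain, was read by 3 probe sets that did not give the same picture. The probe set 1417063_at had 2131 and 3384 on the synaptic arrays and 3323 and 3683 on the non-synaptic arrays, a difference of -0.38 ± 0.29. One synaptic array stood well below the other 3. The probe set 1434366_x_at gave 3676 and 3783 against 3828 and 3494, a difference of 0.03 ± 0.20. The probe set 1437726_x_at gave 3024 and 3852 against 3651 and 2706, a difference of 0.12 ± 0.26, and its arrays were ordered oppositely in the 2 regions. An x in such a name marks, by the manufacturer's convention, probes that may also bind other transcripts. Over the 5 probe sets of the C1q chains, the differences ran from -0.39 to 0.12.

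Csf1r, the receptor for the growth factors CSF1 and IL-34, was close to level. Its brightest probe set, 1419872_at, read 13175 and 14050 on the synaptic arrays against 13903 and 14413 on the non-synaptic ones. The difference was -0.06 ± 0.16, with a 95% interval from -0.47 to 0.36. The probe set 1419873_s_at read 3631 and 5250 against 4676 and 4935 (-0.14 ± 0.25), and 1423593_a_at read 2607 and 2980 against 2385 and 3604 (-0.07 ± 0.28). In both, the values of one region spanned those of the other.

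Tyrobp encodes DAP12, an adaptor that carries signals from receptors such as TREM2 through its ITAM motif. It read 1387 and 2289 on the synaptic arrays and 1268 and 2007 on the non-synaptic arrays. Each synaptic array was above the non-synaptic array of the same replicate number, by 0.13 and 0.19 on the log2 scale, and the difference was 0.16 ± 0.38. Cd14 encodes a coreceptor that hands bacterial lipopolysaccharide to TLR4. Its intensities were 1225 and 1215 against 1186 and 1269, so that all 4 arrays read nearly alike (-0.01 ± 0.24).

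Cd163 takes up haemoglobin bound to haptoglobin and marks tissue-resident macrophages. It read 1792 and 1943 in the synaptic region, a mean of 1868 ± 107 (SD, n = 2), and 2674 and 2708 in the non-synaptic region, a mean of 2691 ± 24.0. The arrays of each region lay close together, and the regions were apart. The difference was -0.53 ± 0.21, with a 95% interval from -1.07 to 0.01, and its limma p-value ranked 272 of 26480, the lowest rank of the 14 probe sets, without passing (adjusted p = 1.0). A larger difference in either direction was found in 7.17% of all tested probe sets. Within replicate number 1 it was -0.58 and within number 2 -0.48, and leaving out each array in turn left it between -0.59 and -0.47.

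Mrc1 encodes the mannose receptor CD206, which some endothelial cells also make. It read 2673 and 5271 on the synaptic arrays and 3238 and 5823 on the non-synaptic arrays. Each synaptic array was below the non-synaptic array of the same number, but the 2 arrays of a region differed more than that, and the difference of -0.21 ± 0.44 had the widest interval of the 14, from -1.34 to 0.92. Cd68 encodes macrosialin, a glycoprotein of lysosomes and endosomes used as a macrophage stain. It read 1232 and 1058 against 1194 and 948, a difference of 0.10 ± 0.28. Cd74 encodes the invariant chain, which guards the groove of MHC class II molecules and is also made by B cells and dendritic cells. It read 5783 and 6096 against 6002 and 6692, a difference of -0.09 ± 0.19, with values that overlapped narrowly.

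**Figure D2:**
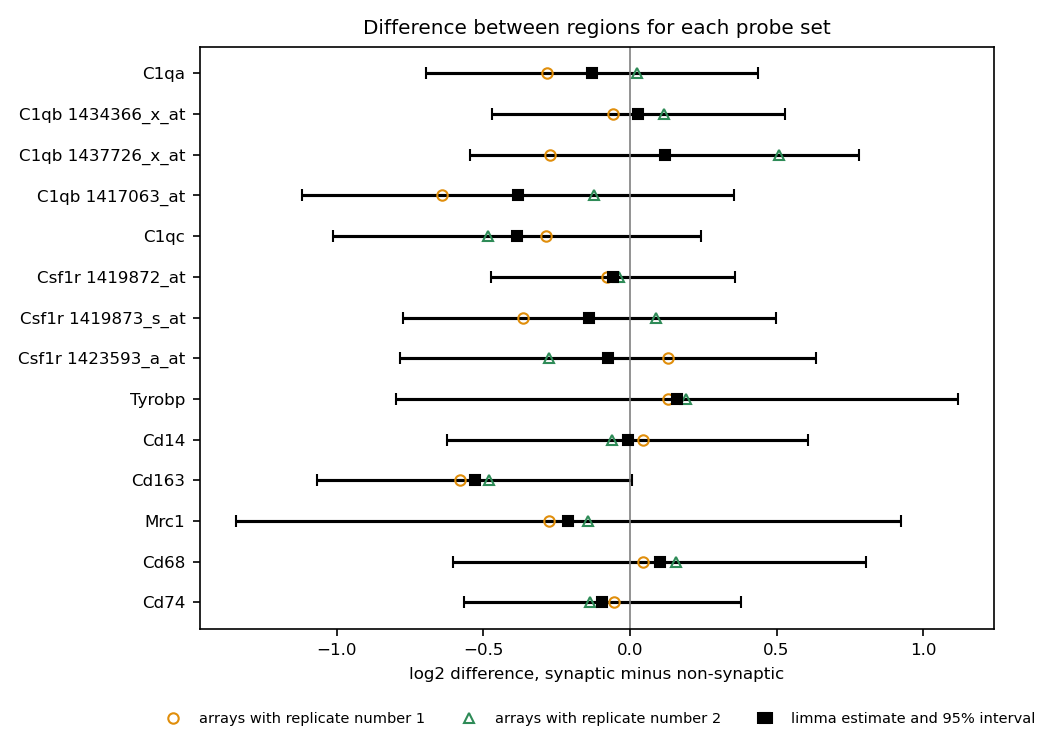
Log2 difference between the regions (horizontal axis, synaptic minus non-synaptic) for the 14 probe sets, with squares and bars for the limma estimate and its 95% interval, open circles for the arrays of replicate number 1 and open triangles for those of number 2. All 14 intervals include 0, and that of Cd163 ends at 0.01.

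With limma's adjusted p under 0.05 as the threshold, 0 of the 14 member probe sets passed in either direction, and 0 did so at an unadjusted p under 0.05. Over all 26480 probe sets tested, 0.00378% were called higher and 0.00755% lower, and 0.653% and 0.332% had an unadjusted p under 0.05. The members' differences ran from -0.53 for Cd163 to 0.16 for Tyrobp. Of the 14, 10 were below 0, as were 13861 of the 26480 probe sets tested. The members' median was -0.08, beside -0.01 over all. The 95% interval lay within a 2-fold difference for 9 of the 14. It reached past 2-fold for Cd163, C1qc, Mrc1, Tyrobp and the probe set 1417063_at of C1qb. For these the fit, which left the replicate number out, did not bound the difference within 2-fold. The spread in that fit includes the split by replicate number, which was wide for Mrc1 and Tyrobp. Within numbers 1 and 2 the difference was -0.28 and -0.14 for Mrc1 and 0.13 and 0.19 for Tyrobp. No interval with the number as a block is given. By replicate number, 6 of the 14 were lower in the synaptic array of both numbers, against 27.3% of all probe sets. Tyrobp and Cd68 were higher in both, 2 of 14 against 23.8% of all.

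The replicate number separated several members in both regions, as it did many probe sets over the whole table. The arrays numbered 2 were both above the arrays numbered 1 for 7 of the 14 probe sets, against 33% of all, and both below for 2, against 28.3% of all. The 7 include all 3 probe sets of Csf1r. Mrc1 was 1.97 times as high on array 2 as on array 1 of the synaptic pair and 1.80 times on array 2 of the non-synaptic pair. Tyrobp was 1.65 and 1.58 times as high. A split by number in the same direction in both regions and larger in its smaller step was seen in 5.62% of tested probe sets for Mrc1 and in 9.68% for Tyrobp. Cd163 differed little by number, with 1.08 and 1.01 times. Cd68 went the other way, at 0.858 and 0.794 times. What the number stands for is not stated, so a difference between animals and one between preparations cannot be told apart.

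**Figure D3:**
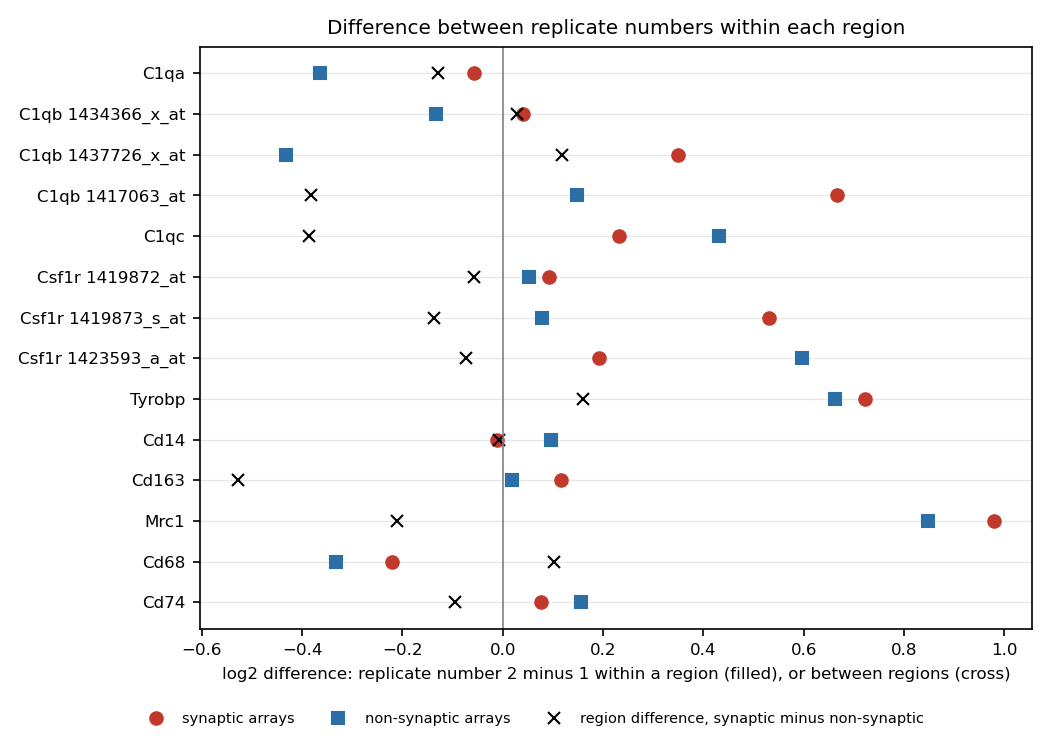
Log2 difference between the arrays of replicate number 2 and number 1 in the synaptic region (red circles) and the non-synaptic region (blue squares), with the difference between regions as a cross, for the 14 probe sets. Mrc1 and Tyrobp stand furthest to the right in both regions, while the circle and square of Cd163 lie near 0 and its cross is furthest to the left.

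Related genes were read in 12 lists of pathways around these members, 1 probe set per gene. Of 197 genes listed 135 were measured, and by limma 0 passed in either direction over all probe sets. At an unadjusted limma p under 0.05, 0 were higher and 3 lower, against 0.825% and 0.372% of all 12363 genes. These 3 were Hp, Cebpa and Fcna. Hp was bright enough to be tested only through the non-synaptic arrays, so its place among the 3 is tied to its difference. Both synaptic arrays lay below both others for 29 of the 135 (21.5%), against 9.85% of all genes, and above for 10 (7.41%), against 10.6%. Hp, Lat2 and Cd86 among those below, and Cx3cr1 among those above, were bright enough only through the region where they were higher. Their places in these counts are tied to their differences. The median difference was -0.09, beside 0.005 over all genes.

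Genes of resident and scavenger macrophages had the widest differences among the macrophage lists. Of 17 measured, 5 had both synaptic arrays below the others, against 9.85% of all genes, and 2 above, against 10.6%. The median was -0.07. Fcna, which encodes the lectin ficolin A, had log2 values of 9.75 and 9.97 on the synaptic arrays and 10.93 and 10.72 on the others, a difference of -0.97 ± 0.25 (limma adjusted p = 1.0). Folr2, a folate receptor of resident macrophages, differed by -0.63 ± 0.29 and Retnla, a secreted protein of alternatively activated macrophages and of fat, by -0.99 ± 0.46. F13a1, the coagulation factor XIII A chain, at -0.54, and the reductase gene Cbr2, at -0.26, were the other 2 that lay below. Cd209f at 0.55 and Clec4n at 0.22, both of C-type lectins, lay above. These 4 are named after their values were seen. Gas6, a ligand of the receptor that clears dead cells, differed by -0.07 ± 0.21, with -0.22 on a second probe set, and the transcription factor Maf by -0.19 ± 0.21, with -0.34 to 0.05 on its others. Ccl8, a chemokine gene named after its values were seen, differed by -1.07, with values that overlapped and 1 synaptic array at the lowest value used. It was bright enough to be tested only through the non-synaptic arrays, so its place here is tied to its difference.

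Of 21 other myeloid and leukocyte genes measured, both synaptic arrays lay below the others for 2 and above for 1, near or under the shares over all genes. The median was -0.17, with 15 of the 21 below 0, and none passed. The lysozyme genes Lyz1 and Lyz2 differed by -0.56 ± 0.36, with -0.20 on a second probe set of Lyz1, and -0.35 ± 0.39, and Coro1a, a leukocyte actin regulator, by -0.34 ± 0.29. Cx3cr1, the fractalkine receptor of monocytes and of many resident macrophages, lay the other way at 0.52 ± 0.39. With log2 values of 8.39 and 9.01 on the non-synaptic arrays, it was bright enough to be tested only through the synaptic arrays. Its place as the 1 gene above is thus tied to its difference. For 11 of the 21 both arrays numbered 2 were above those numbered 1, against 28.2% of all genes, and for 2 below, against 32.7%. Lyz2 was higher on array 2 by 0.58 (synaptic) and 0.96 (non-synaptic) on the log2 scale. Among 6 measured genes of recruited monocytes the median was 0.01, with the calcium-binding protein gene S100a4 at 0.51 ± 0.22 and both its synaptic arrays above the others, the fibronectin gene Fn1 at -0.34 ± 0.34 (-0.80 on its second probe set) and Plac8 at -0.19 ± 0.24. Another 3 of the 9 with a probe set were too dim to be tested. Which cells of the muscle made these transcripts was not tested.

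Around Csf1r, the ligand gene Csf1 differed by -0.11 ± 0.30, with -0.58 to -0.12 on its other probe sets, and the adaptor gene Grb2 by 0.01 ± 0.21. Cebpa, a transcription factor of the myeloid lineage and also of fat cells, had log2 values of 10.15 and 10.57 on the synaptic arrays and 11.56 and 11.25 on the non-synaptic arrays. Its difference was -1.05 ± 0.27 (limma adjusted p = 1.0). Runx1 differed by -0.31 ± 0.24 and Irf8 by 0.48 ± 0.26, both transcription factors of blood cells, with -0.03 on a second probe set of Irf8 and 0.03 and -0.60 on those of Runx1. The median of the 9 genes was -0.11. Around Tyrobp, 11 genes had a median of -0.15. Fcer1g, the ITAM adaptor that pairs with Fc receptors, differed by -0.50 ± 0.35, Lat2 by -0.53 ± 0.42 and the receptor gene Pilrb1 by -0.39 ± 0.28, each with both synaptic arrays below the others. Lat2, with log2 values of 8.53 and 8.73 on the synaptic arrays, was bright enough to be tested only through the non-synaptic arrays. Its place here is thus tied to its difference. Sirpa, the receptor for CD47, differed by -0.10 ± 0.24 and by -0.87 and -0.24 on its other probe sets, and the phosphatase gene Inpp5d by 0.16 ± 0.24.

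The proteases that act directly after C1q had differences of the same sign as C1qc. C1s1 had log2 values of 12.41 and 12.79 on the synaptic arrays and 12.88 and 13.06 on the others, a difference of -0.37 ± 0.22. C1ra had 12.38 and 12.51 against 12.73 and 12.52, a difference of -0.18 ± 0.20. Both genes had both synaptic arrays below the others, as 9.85% of all genes did, and neither passed. C2 differed by 0.05 ± 0.28, and by 0.33 and -0.23 on its other probe sets. C9, a pore-forming component, read 7.31, the lowest value used, and 9.31 on the synaptic arrays and 9.25 and 9.70 on the others. Its regions overlapped, and the fitted difference of -1.16 ± 0.72 rests on the array at the lowest value. C9 was bright enough to be tested only through the non-synaptic arrays, so its place here is tied to its difference. The 4 genes had a median of -0.27, and C3 and C4b of the same pathway are not analysed here.

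In the alternative and lectin pathways 6 genes had a median of -0.07. Beside Fcna, the lectin pathway protease gene Masp1 differed by 0.38 ± 0.19, with -0.69 to 0.63 on its other probe sets, and the properdin gene Cfp by 0.45 ± 0.41, with -1.58 on its second probe set. Of 12 complement receptors and inhibitors the median was -0.02. The inhibitor gene Cd46 differed by 0.48 ± 0.30, the integrin chain Itgax by 0.31 ± 0.38 and the inhibitor gene Cd59a by -0.13 ± 0.17, with -0.38 on its second probe set. Itgax was bright enough to be tested only through the synaptic arrays, so its place here is tied to its difference. C1qbp and Calr, which encode proteins that bind C1q and have other main roles in mitochondria and in the endoplasmic reticulum, differed by 0.12 ± 0.24, with -0.03 on a second probe set, and 0.10 ± 0.19.

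None of the partners of Cd74 in MHC class II presentation passed. Of 12 measured 9 were below 0 with a median of -0.11. Both synaptic arrays lay below the others for 3, against 9.85% of all genes, and above for 1, against 10.6%. The class II chain H2-Aa differed by 0.05 ± 0.21, with 0.17 and 0.21 on its other probe sets. The lysosomal reductase gene Ifi30 differed by -0.02 ± 0.18, the costimulatory genes Cd86 and Cd83 by -0.60 ± 0.42 and -0.34 ± 0.45, and Rfxank, a subunit of the factor that drives class II genes, by -0.26 ± 0.24, with 0.25 on its second probe set. Cd86, 1 of the 3 below, was bright enough to be tested only through the non-synaptic arrays. Its place among the 3 is thus tied to its difference. Near Cd14, 11 genes of the lipopolysaccharide receptor complex and its targets had a median of -0.13. Tlr2 differed by 0.45 ± 0.31, its adaptor gene Tirap by -0.29 ± 0.25, the cytokine gene Il1b by -0.29 ± 0.32, the kinase gene Irak1 by 0.16 ± 0.21 (0.07 to 0.36 on its other probe sets) and the NF-kappaB inhibitor gene Nfkbia by -0.001 ± 0.21. Tnf and Il6 were at the lowest value used on all 4 arrays.

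Hp, which encodes haptoglobin, the carrier whose complex with haemoglobin Cd163 binds, is made in liver and in fat. Its log2 values were 7.96 and 7.31 on the synaptic arrays, the latter at the lowest value used, and 10.59 and 10.28 on the non-synaptic arrays. The fitted difference was -2.80 ± 0.40, which depends on that lowest value, and it did not pass (limma adjusted p = 0.597). Its mean was above the filter on low values only through the non-synaptic arrays. The other measured genes of haemoglobin and iron handling were closer to level. The iron exporter gene Slc40a1 differed by 0.22 ± 0.25, the biliverdin reductase gene Blvra by -0.21 ± 0.20, the ferritin gene Fth1 by 0.06 ± 0.13 and the transferrin receptor gene Tfrc by -0.10 ± 0.29, with -0.48 and -0.51 on its other probe sets. The 17 lysosomal genes, of the compartment where Cd68 resides, ran from -0.35 to 0.08 with a median of -0.05. The protease genes Lgmn, Ctsc and Ctsh differed by -0.34 ± 0.25, -0.21 ± 0.31 and -0.15 ± 0.25, with 0.27 on a second probe set of Ctsh, and the membrane protein genes Lamp1 and Laptm4a by 0.08 ± 0.22 and -0.03 ± 0.15.

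**Figure D4:**
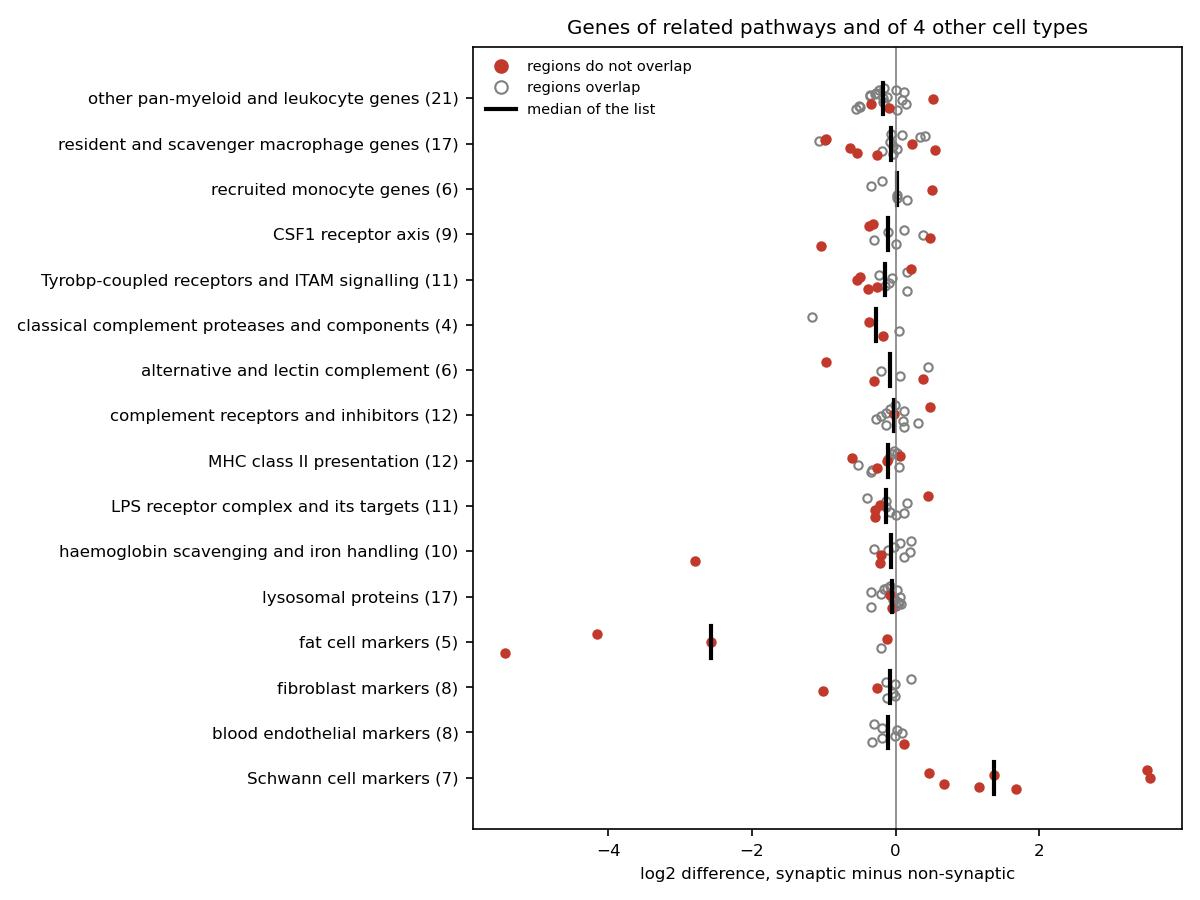
Log2 difference between the regions (horizontal axis, synaptic minus non-synaptic) of each measured gene in the 12 pathway lists and in markers of 4 other cell types, with the number measured in brackets, filled red points where the arrays of the regions do not overlap and a bar at the median. Medians of the 12 pathway lists lie between -0.27 and 0.01. Fat cell markers spread from Adipoq at -5.43 to Fabp4 at -0.12, and all 7 Schwann cell markers lie above 0.

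Some markers of fat cells, and markers of Schwann cells, differed between the same arrays. Of 7 fat cell genes with a probe set 5 passed the filter on low values, and Adipoq, Pck1 and Retn did so through the non-synaptic arrays, so their passing is tied to the difference. Fabp4, a fatty acid carrier and the brightest, differed by -0.12 and the lipase gene Lipe by -0.20 with overlapping arrays. The summed intensity of the 7 genes was 111098 to 119085 on the synaptic arrays and 135774 to 141664 on the others, and none was at the lowest value used on all 4 arrays. Adipoq, the adiponectin gene, read 7.54 and 7.56 on the log2 scale on the synaptic arrays, near the lowest value used, and 13.14 and 12.82 on the others (limma adjusted p = 0.0326). Pck1 was at the lowest value used on both synaptic arrays and at 11.38 and 11.58 on the others, while its second probe set differed by only -1.35. Retn, the resistin gene, read 7.73 and 9.49 against 11.13 and 11.23. Fabp4, Lipe and Retn are named after their values were seen. All 7 measured Schwann cell genes, of 8 with a probe set, had both synaptic arrays above the others, against 10.6% of all genes. Ncmap (8.75 and 8.55 on the non-synaptic arrays) and Egr2 (8.02 and 8.86) passed the filter through the synaptic arrays. Their passing is thus tied to the difference, and Egr2 is named after its values were seen. Mbp, of myelin, differed by 3.50 ± 0.17 on its brightest probe set (limma adjusted p = 0.0326) and by 0.23 to 3.82 on its other probe sets, and Ncmap by 3.54 ± 0.26. The summed intensity of the 8 was 106015 to 115221 on the synaptic arrays and 30704 to 32690 on the others. The part of either cell type in the values of Cd163, C1qc, Fcna, Cebpa and Hp was not tested.

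Most other cell types were closer to level. Medians were -0.10 for 8 blood endothelial genes, with Egfl7 at -0.18 ± 0.19 and Pecam1 at -0.33 ± 0.41, and 0.20 for 4 lymphatic endothelial genes, with Pdpn at 0.26 ± 0.17 and Reln at 0.24 ± 0.25. Pecam1, a vessel marker found on myeloid cells too, was higher on array 2 by 1.0 (synaptic) and 0.65 (non-synaptic) on the log2 scale. Of the 8 blood endothelial genes, 4 had both arrays numbered 2 above those numbered 1, against 28.2% of all genes. Another 2 had both below, against 32.7%, among them Egfl7 at -0.31 (synaptic) and -0.09 (non-synaptic). The median was -0.08 for 8 fibroblast genes, with Pi16 at -1.02 ± 0.22 and Dpt at -0.26 ± 0.17. Of markers of leukocytes other than macrophages, few were measured. These were 4 dendritic cell genes (median -0.07, Flt3 at -0.80 ± 0.78 and Batf3 at 0.28 ± 0.38), 4 neutrophil genes (median -0.33, Ltf at -0.57 ± 0.43 and S100a9 at -0.57 ± 0.44) and 4 mast cell genes (median 0.07, Cma1 at 0.09 ± 0.23 and Kit at 0.09 ± 0.28). Ltf was bright enough to be tested only through the non-synaptic arrays, so its place here is tied to its difference.

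Lymphocyte markers were measured for 2 T cell genes, Thy1 at 0.13 ± 0.20 and Cd8a at 0.08 ± 0.31 (-0.08 on its second probe set), and 3 B cell genes, with Ms4a1 at 0.31 ± 0.33 and Pax5 at -0.25 ± 0.36. The last B cell gene, Ighm, named after its values were seen, was uneven between arrays. It had log2 values of 13.41 and 9.8 on the synaptic arrays and 11.26 and 10.32 on the others, a difference of 0.81 ± 1.18 with overlapping regions. Of 7 T cell genes with a probe set 5 were too dim to be tested, and Cd4 and Cd3d were at the lowest value used on all 4 arrays. Which cells made the Thy1 transcript, at log2 values of 12.39 to 12.69, was not tested. Of red blood cell genes 2 were measured, Alas2 at -0.24 ± 0.25 and Slc4a1 at 0.14 ± 0.32. All 10 skeletal muscle genes were measured, with Myh2 at 0.15 ± 0.17 and Myh4 at -1.32 ± 0.18. Of 5 genes known from the muscle side of the synapse, 4 had both synaptic arrays above the others, against 10.6% of all genes. Among them were Etv5 at 2.41 ± 0.21 (1.43 and 2.10 on its other probe sets) and Ache at 2.58 ± 0.23, so the region labels matched these 4 genes.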

How the data were processed

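Each of the 4 arrays gave 1 linear intensity per probe set, used as the authors deposited it; the labels name no summary method. The deposited values have a 2% trimmed mean of 2500 on every array, a scaling that was kept and that hides any shift common to most transcripts. Values under 158.891, the 20th percentile, were raised to it before log2 was taken (7.31). Probe sets with a mean log2 value under 8.87, the 40th percentile, and 64 control probe sets were left out, leaving 26480. Signal near that floor and the number of arrays limit the precision.

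The 2-sided comparison of regions used R 4.3.3 and limma 3.58.1 (lmFit, then eBayes with a trend on intensity), with Benjamini-Hochberg adjustment over these 26480 and 0.05 as the threshold. The fit was tested only on simulated data with independent noise on each array and differences larger than those of the members. That test does not cover arrays that deviate together or differences as small as the members'. With 2 arrays a region the smallest p that exact permutation allows is 0.333, so none was used. Intervals are those of the moderated fit, which has no term for the replicate number.

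Gene names came from the platform annotation, updated through Entrez identifiers with RefSeq tables of GRCm38.p6 (34754 of 34958 probe sets with 1 gene matched). In the lists a gene was read from its brightest probe set. All member probe sets are named. Of each pathway list the 3 genes with the smallest p and the 2 with the highest mean are named, and of each marker list the 2 with the smallest p. The members and lists were chosen with earlier results of these data known.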

Additional observations from a re-analysis of the deposited data

How the results depend on the processing

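The count of member probe sets called stayed at 0 under every alternative run, over 14 members in each but the filter at the 60th percentile, which left Cd68 out and tested 13: quantile normalization, median centring, a floor at the 40th percentile, no filter, a filter at the 60th percentile, no intensity trend, a robust prior, a threshold of 0.10, the replicate number as a block and leaving out each array in turn. The lowest adjusted limma p of any member in these settings was 0.576, for Cd163 with the block. Of the 14 member probe sets, 5 kept their sign throughout, namely Cd163, C1qc, Cd74, the probe set 1417063_at of C1qb and 1419872_at of Csf1r, and 9 changed sign in some setting. The median over the members was -0.08 and lay between -0.17 and -0.01 in all settings, among them -0.17 within replicate number 1 and -0.05 within number 2, which were computed after the data were seen. Over the whole table the higher count, 1, became 6 with median centring and at a threshold of 0.10, 3 with the filter at the 60th percentile, and 0 with the raised floor, with no filter and with no trend. The lower count, 2, became 3 with median centring and at a threshold of 0.10, and 0 with the raised floor, with no filter and with no trend. Leaving out each array gave 0 to 6 higher and 0 to 5 lower, with 0 and 0 without either non-synaptic array, 4 and 3 without synaptic array 1, and 6 and 5 without synaptic array 2. With the replicate number as a block the counts were 56 higher and 18 lower. Arrays with the same number deviated together from their regions (correlation 0.634 across probe sets, which are not independent), but with 2 pairs and no stated meaning of the number they are taken to share a number only. The cause of these changes was not tested. Values at or near the floor limit Hp, C9, Ccl8, Pck1, Adipoq and Retn, and no member was at it.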
